A study of Mus musculus with 15 samples.

Results

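Mouse embryonic fibroblasts that lack beta-actin (KO) were compared with fibroblasts that keep 1 working copy of its gene Actb (HET), both after 14 days of osteogenic culture. The comparison takes 3 KO and 3 HET libraries, 6 of the 15 in the series, chosen by genotype and day as the labels give them. Beta-actin is the most widely expressed cytoplasmic actin. All cells carried the BALB/c strain label and came from 10.5-day embryos. They were grown to confluence on Matrigel and then kept from day 0 in OsteoMax-XF medium with dexamethasone, a glucocorticoid, and forskolin, an activator of cAMP synthesis. HET is labelled as heterozygous and KO as knockout for beta-actin. The 3 wild-type (WT) libraries of day 14, from cells with the same treatment, are given beside some results as a reference level. WT and KO at day 4 make up the other 6 libraries. The labels do not say how many embryos or cell lines stand behind a genotype, nor whether replicates were separate cultures. The p-values therefore measure only the spread between libraries, which the fit estimates over all 15 of the series. Genotype and any other lasting difference between the cell populations cannot be told apart.

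Actin monomers assemble into filaments that give a fibroblast its shape, its stress fibres and its grip on the matrix. Free monomers hold the coactivators MRTF-A and MRTF-B in the cytoplasm; as monomers are used up, MRTF enters the nucleus and works with serum response factor (SRF) on genes of the actin cytoskeleton and of smooth muscle. Actin is also a subunit of nuclear chromatin remodelling complexes. Osteoblasts are the bone-forming cells that express the factors Runx2 and Sp7 and deposit a matrix of type I collagen, which is built from the chains Col1a1 and Col1a2.

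Levels are given in CPM, the reads of a gene per 1000000 counted reads of its library, after scaling between libraries. Values of 1 group are listed in the order of replicates 1, 2 and 3. Differences are log2 changes, KO minus HET, ± SE, so 1 unit is 2-fold. A gene was called where edgeR's quasi-likelihood test gave a Benjamini-Hochberg adjusted p below 0.05 over all 15296 genes tested. The files hold 21460603 to 24822803 counted reads per library in KO and 19878449 to 22180840 in HET. HET replicate 2 stood apart from the other HET libraries. Its chi-square per degree of freedom was 50.1 against replicate 1 and 50.4 against replicate 3, while replicates 1 and 3 differed by 2.89 and the KO libraries by 2.27 to 2.57. Ribosomal protein genes took 4.87% of its counts, against 3.38% and 3.44% in the other HET libraries and 2.42% to 2.44% in KO. The share of genes encoded in mitochondria was 0.607% to 0.769% in HET and 0.869% to 0.902% in KO. The part of either share in the results was not tested.

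Expression differed between KO and HET across most of the expressed genome. Of 15296 genes, 9104 were called, which is 59.5%, with 4502 higher in KO (29.4%) and 4602 lower (30.1%). A change of 2-fold or more was called for 1519 genes upwards (9.93%) and 1378 downwards (9.01%), and one of 8-fold or more for 754 genes (4.93%). The median change over all genes tested was -0.01. At an unadjusted p below 0.05, 9653 genes passed (63.1%). The libraries of the groups did not overlap for 9455 genes (61.8%), and 2897 genes were called with a change of 2-fold or more (18.9%). Without HET replicate 2, 9554 of 15787 genes were called (60.5%), 30.3% higher and 30.2% lower; 8412 genes kept their call, 692 lost it and none turned direction. A gene list with 59.5% of its members called is at this background, so lists are described below by the direction of their calls.

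The changes were unevenly spread over the chromosomes, and each library showed it. Genes of chromosome 4 were higher in KO by a median log2 change of 0.40, with 524 higher and 134 lower of 966 tested. Chromosome 3 had a median of 0.34, with 418 higher and 97 lower of 822. On chromosome 14 the median was -0.42, with 55 higher and 270 lower of 482, and on chromosome X it was -0.32, with 78 higher and 237 lower of 486. Chromosomes 2 and 1 had medians of -0.23 and -0.20, and the other autosomes lay between -0.13 and 0.15. On the mitochondrial chromosome the median was 0.61, with 11 of 17 genes higher and none lower; chromosome Y had 1 gene tested. Within some chromosomes the shift was segmental, and on others it ran along the whole length. Expressed genes with a mean of at least 5 CPM were taken in 4 parts of equal gene number from the start of the chromosome. The medians ran 0.55, 0.60, 0.34 and 0.06 on chromosome 4, and -0.23, -0.20, 0.15 and 0.26 on chromosome 9. On chromosome 2 they ran -0.13, -0.10, -0.24 and -0.54. On chromosome 3 they were 0.31, 0.25, 0.36 and 0.40, and on chromosome 14 -0.32, -0.46, -0.47 and -0.49. Against the WT libraries, the median for chromosome 14 was -0.30 in KO and 0.11 in HET, that for chromosome 3 was 0.33 and -0.01, and that for chromosome 4 was 0.10 and -0.30; these values share libraries with the comparison above. DNA copy number was not measured in these data, and its part in these shifts was not tested. Because the shifts touch every list of genes, counts for several lists are also given relative to neighbouring genes, with the median change of the 50 nearest expressed genes on the chromosome taken as 0.

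**Figure D1:**
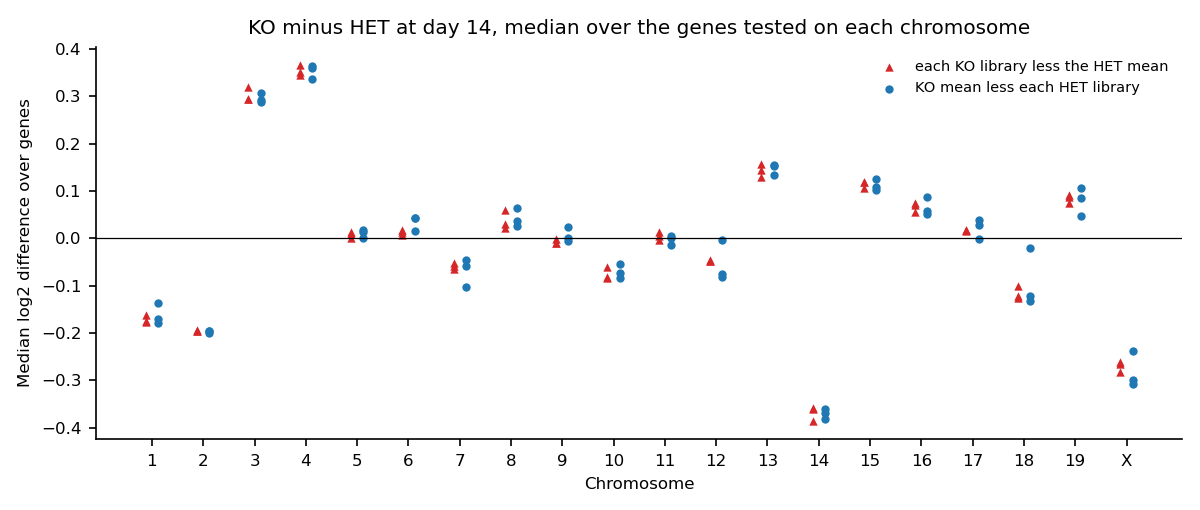
Median log2 difference between KO and HET over all genes tested on each chromosome, with each KO library less the HET mean (triangles) and the KO mean less each HET library (circles). The 6 libraries give the same sign on every chromosome except 5, 9, 11 and 17, with values near 0 on several others. The medians are highest on chromosome 4 and lowest on chromosome 14.

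The region of chromosome 5 around Actb lies in a longer stretch that was lower in KO. Of the 122 other genes tested within 5 Mb of Actb, 61 were lower and 12 higher, with a median of -0.37, against 0.01 for the whole chromosome. The share called in this window was 59.8%, near that of all genes. The last of 4 parts of chromosome 5, which holds Actb and this whole window, had a median of -0.32 over 176 genes. Of these, 18 were higher and 106 lower, more than the 61 of the window, so lower calls also lay outside it. Genes of that part outside the window were not summarised apart. Fscn1, the filament-bundling protein fascin, starts 57.2 kb from Actb; its CPM was 254, 252 and 251 in KO and 339.9, 335 and 344 in HET, a change of -0.43 ± 0.04. Rac1, a GTPase that drives actin assembly at the cell edge, lies 600.5 kb away and was not called, at -0.06 ± 0.04 (edgeR adjusted p = 0.267).

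Actb itself (chr5:142903115-142906754 of GRCm38, minus strand), the knocked-out gene, followed the labels. It stood at 46.5, 43.0 and 44.6 CPM in KO and 1488, 1642 and 1437 in HET. All KO libraries were below all HET libraries, and the change was -5.09 ± 0.06 (edgeR adjusted p = 1.08e-17). The counts do not separate exons, so what the residual KO reads cover is not known. Reads from near-identical actin genes and their processed copies may also be shared out among them.

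Of the remaining actin isoforms, 3 were expressed well enough for a test, and each rose. Actg1, which encodes gamma-actin, the other cytoplasmic isoform, stood at 2517, 2482 and 2485 CPM in KO and 1179, 1636 and 1164 in HET, with no overlap and a change of 0.91 ± 0.10; without HET replicate 2 it was 1.09. Acta2, the smooth muscle alpha-actin, stood at 499.5, 492 and 475 CPM in KO and 72.0, 83.4 and 69.5 in HET, a change of 2.71 ± 0.07, while the WT libraries had 25.1, 25.9 and 26.6. Actg2, the gamma-actin of visceral smooth muscle, was scarce in every library, at 5.20, 4.80 and 5.85 CPM in KO and 0.144, 0 and 0.180 in HET, and changed by 5.50 ± 0.55. All 3 isoforms thus separated the groups completely, with HET between WT and KO in mean level. Acta1 and Actc1, the actins of skeletal and cardiac muscle, held at most 11 and 4 counts in any group and were not tested.

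Smooth muscle contractile genes were mostly higher in KO. Of 14 tested, 10 were higher in KO and 1 lower, with a median change of 1.47; without HET replicate 2, 10 were higher and 1 lower, and relative to neighbouring genes the counts were 12 higher and 0 lower. Myl9, the regulatory light chain of smooth muscle myosin, stood at 31.7, 30.6 and 29.9 CPM in KO and 2.59, 2.63 and 2.66 in HET, a change of 3.55 ± 0.15. Tagln, which encodes the actin-binding protein SM22, stood at 17.6, 19 and 17.8 CPM in KO and 4.69, 5.62 and 6.26 in HET, a change of 1.71 ± 0.11. For both, each KO library was above each HET library. Tpm1, a tropomyosin that lines actin filaments, was the 1 member called lower, at -0.35. In bulk RNA, fewer cells of a type and less RNA per cell cannot be told apart, here or in any list that follows.

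The wider list of SRF and MRTF targets did not move one way. Of 23 tested, 11 were higher in KO and 8 lower, with a median of 0.01; relative to neighbouring genes the counts were 14 higher and 5 lower. Higher members included Fhl1, a LIM-domain protein of muscle, at 42.5, 40.3 and 39.3 CPM in KO and 2.40, 2.26 and 2.79 in HET (4.03). Flna, the filament crosslinker filamin A, stood at 1195, 1207 and 1218 CPM in KO and 338, 216 and 332 in HET (2.03). Ccn2, a matricellular growth factor also known as Ctgf, stood at 25.8, 23.4 and 25.3 CPM in KO and 6.32, 7.41 and 7.71 in HET (1.80). The members called lower included 3 immediate early genes, which SRF drives with ternary complex factors: Egr1 changed by -0.91 ± 0.07, Fos by -1.25 ± 0.10 and Ier2 by -0.96 ± 0.11. Among 15 regulators of MRTF and YAP, 6 were higher in KO and 5 lower, so no direction stood out; relative to neighbouring genes the counts were 5 higher and 2 lower. Mrtfa changed by 0.39 ± 0.08 and Wwtr1, which encodes the YAP partner TAZ, by 0.45 ± 0.06, while Tead3, a DNA-binding partner of YAP, changed by -0.70 ± 0.08.

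CArG boxes, the sequences that SRF recognises, were looked for on both strands in the 250 bases before the RefSeq gene start. The table of promoters held 12 of the 15 smooth muscle genes and 20 of the 23 SRF and MRTF targets. A box was found in 1 of the 12 (8.33%) and 5 of the 20 (25%), against 1.47% of all 32851 promoters. Of the genes with a box, Myl9 and 2 of the 5 targets were called higher, none was called lower and the others were not called. Myl9 and Fhl1, both described above, were picked for printing because each was higher in every KO library than in every HET library. They are printed with the box in capitals. They are reference sequence of build GRCm38.p6 from RefSeq, not of the BALB/c cells, 5′ to 3′ on the strand of the gene. The window of Myl9 is chr2:156775214-156775463, plus strand, and that of Fhl1 is chrX:56779433-56779682, plus strand. The boxes start 161 and 102 bases before the gene starts. A match of letters does not show that a factor binds there.
Myl9: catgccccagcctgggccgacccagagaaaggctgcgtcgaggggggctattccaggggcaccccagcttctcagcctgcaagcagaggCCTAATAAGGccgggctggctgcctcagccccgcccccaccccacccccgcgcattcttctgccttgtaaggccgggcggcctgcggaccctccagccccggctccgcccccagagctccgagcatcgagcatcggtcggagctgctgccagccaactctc
Fhl1: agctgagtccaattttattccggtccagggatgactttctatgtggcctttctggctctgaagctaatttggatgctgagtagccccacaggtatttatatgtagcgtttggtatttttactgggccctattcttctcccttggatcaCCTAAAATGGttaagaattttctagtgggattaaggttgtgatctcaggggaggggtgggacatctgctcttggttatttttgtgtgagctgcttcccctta

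Proteins that build, cut and cross-link actin filaments changed in both directions. Of 34 tested genes of actin nucleation and turnover, 11 were higher in KO and 12 lower, with a median of 0.03. Without HET replicate 2, 15 were higher and 14 lower, and relative to neighbouring genes the counts were 14 higher and 8 lower. Pfn2, a profilin, which feeds monomers to growing filaments, stood at 16.4, 16.1 and 15.3 CPM in KO and 3.35, 4.00 and 2.30 in HET, a change of 2.32 ± 0.14. Capg, a capping protein, changed by 1.30 ± 0.09 and Arpc1a, a subunit of the branching complex Arp2/3, by -0.93 ± 0.07. Arpc1a starts 2180.7 kb from Actb, within the window of mostly lower genes described above. Of 19 crosslinkers and myosins, 9 were called higher and 2 lower, with a median of 0.14. Without HET replicate 2, 9 were higher and 3 lower, and the median was -0.04. Relative to neighbouring genes the counts were 9 higher and 2 lower. The class I myosin Myo1d, which links membranes to actin, stood at 98.2, 96.5 and 102 CPM in KO and 20.2, 13.6 and 19.1 in HET, a change of 2.48 ± 0.12. Each KO library was above each HET library. Of 13 tubulins, the subunits of microtubules, 8 were lower, among them Tuba1a (-0.85) and Tuba4a (-0.77), and 3 were higher; without HET replicate 2, 7 were lower and 5 higher, and relative to neighbouring genes 7 and 1. Among 13 intermediate filament genes, 7 were higher in KO and 4 lower. Vim, the vimentin of mesenchymal cells, stood at 1506, 1517 and 1498 CPM in KO and 985, 1191 and 991 in HET, a change of 0.51 ± 0.06. Nes, the intermediate filament protein nestin, changed by 1.02 ± 0.05 and Krt17, a keratin, by -1.74 ± 0.11.

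The largest changes were close to all or none. By the rule used, they are the 12 largest increases and the 12 largest decreases among called genes with at least 10 CPM in the higher group, no overlap and the same call without HET replicate 2. Klra4 (chr6:130043731-130067271), a lectin-like receptor of a multigene family known from natural killer cells, stood at 27.0, 24.3 and 25.9 CPM in KO and had no count in HET, so it was at least 534-fold higher with HET set at 3 counts over the group. Such family members share reads, so its identity is less certain than that of a single-copy gene. Sulf1, an enzyme that trims sulfate from heparan sulfate, stood at 44.2, 51.0 and 46.7 CPM in KO and 0, 0.0526 and 0 in HET; the single HET count gives 2931-fold, with a 95% counting interval of 526 to 115801. Selp, the adhesion molecule P-selectin, stood at 112, 114 and 119 CPM in KO and 0, 0.105 and 0.135 in HET, a change of 10.40 ± 0.84. Plin4, a coat protein of lipid droplets, stood at 60.3, 59.6 and 63.4 CPM in KO and 0.383, 0.158 and 0.676 in HET, a change of 7.17 ± 0.38. The remaining increases were Spink8, Hoxd8, Slc6a12, Sgk2, Arap2, Slc2a4 (the insulin-responsive glucose transporter GLUT4), Map2 and Cers4 (a ceramide synthase). In WT, Arap2 and Cers4 were also expressed, at 14.7 ± 1.09 and 16.5 ± 0.797 CPM (SD, n = 3), while Klra4, Slc6a12 and Sgk2 had no WT count.

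Irx1 (chr13:71957921-71963723), a homeobox factor of limb and skeletal patterning, was among the decreases. It stood at 76.7, 77.1 and 79.8 CPM in HET and had no count in KO, at least 1839-fold lower with KO set at 3 counts over the group. Col1a2 (chr6:4504814-4541544), the alpha-2 chain of type I collagen, stood at 517, 447 and 504 CPM in HET and 0.0423, 0.229 and 0.0791 in KO. This is a change of -12.02 ± 0.55, and the WT libraries were also below 1 CPM, at 0.140, 0.464 and 0.327. Msx1, a homeobox factor of craniofacial and limb mesenchyme, stood at 25.7, 28.4 and 24.1 CPM in HET and 0.0423, 0 and 0 in KO; the single KO count gives a level lower by 1836-fold, with a 95% counting interval of 329 to 72576. Dkk3, a secreted protein of the Dickkopf family, stood at 65.7, 57.1 and 66.1 CPM in HET and 0.169, 0 and 0 in KO, a change of -10.01 ± 0.98. Cybb, the catalytic subunit of the phagocyte NADPH oxidase, stood at 51.1, 38.0 and 48.4 CPM in HET and 0.0423, 0.0915 and 0 in KO. The other decreases were Xist, Hoxa11, Dmrt2, Rftn1, Pid1, Efemp1 (a fibulin of the elastic matrix) and Nrn1. Msx1, Hoxa11 and Efemp1 were expressed in WT at 23.4 ± 1.98, 12.1 ± 2.05 and 46.4 ± 2.44 CPM, while Col1a2, Xist, Dmrt2, Rftn1, Pid1, Cybb and Nrn1 were below 1 CPM in each WT library.

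**Figure D2:**
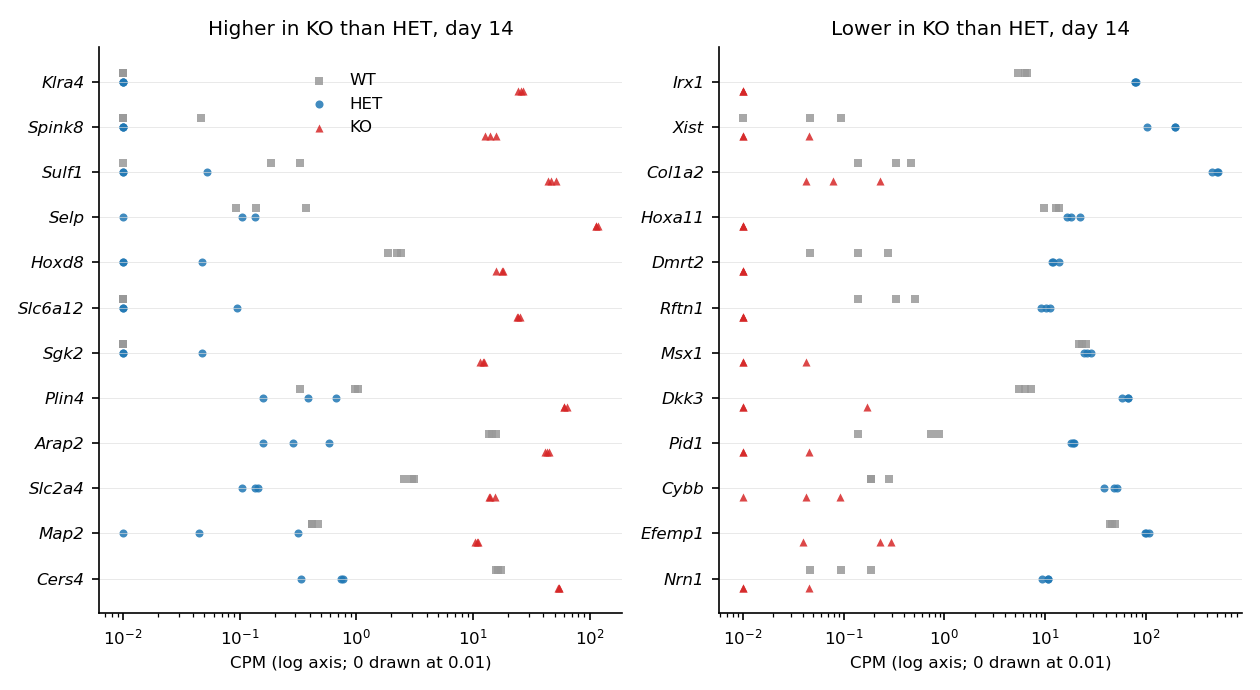
CPM of the 12 largest increases (left) and decreases (right) in each library of WT, HET and KO at day 14, on a log axis with 0 drawn at 0.01. The KO and HET libraries lie far apart for each gene, and WT lies with HET for some and with KO for others.

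In absolute level, the largest gains were in Actg1, the ferritin heavy chain Fth1, the desaturase Scd2, fatty acid synthase Fasn, the chemokine Cxcl1 and the metallothionein Mt2. Fth1 stood at 6665, 6523 and 6693 CPM in KO and 4658, 6919 and 4757 in HET; the groups overlapped through HET replicate 2, and the change of 0.28 ± 0.11 became 0.49 without it. That call was lost when any other of the 6 libraries was left out. Cxcl1, which attracts neutrophils, stood at 1590.3, 1569.7 and 1502 CPM in KO and 508, 571 and 531 in HET, a change of 1.53 ± 0.05. The largest losses were in Saa3, Mmp13, Selenop, Eef1a1, Hp and Actb. Saa3, an acute phase protein made by stimulated mesenchymal cells and macrophages, stood at 10748, 17074 and 10987 CPM in HET and 2005, 1951 and 1989 in KO, a change of -2.71 ± 0.14. Mmp13, the collagenase of cartilage and bone, stood at 4071, 4289 and 4127 CPM in HET and 43.6, 44.1 and 41.6 in KO, a change of -6.59 ± 0.05. Selenop, a secreted selenium carrier, stood at 2835, 3439 and 2897 CPM in HET and 494, 481 and 483 in KO, a change of -2.65 ± 0.06. For the last 3 genes every KO library was below every HET library. Mean WT levels were 812 CPM for Actg1, 4093 for Fth1, 1488 for Scd2, 471.5 for Fasn, 1596 for Cxcl1 and 222 for Mt2. Those of the losses were 6692 for Saa3, 1002.5 for Mmp13, 101 for Selenop, 7819 for Eef1a1, 857 for Hp and 2996 for Actb. Cxcl1 in KO was thus near WT, and Selenop in KO was above WT. Counts of Eef1a1 and Fth1, which have many processed copies in the genome, may be split among those copies.

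Gene lists of known function separated into those that went mostly down in KO, mostly up, or both ways. Each is read against the share of all genes called higher (29.4%) and lower (30.1%). The lists were compiled with earlier results of these data known, and some share members.

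**Figure D3:**
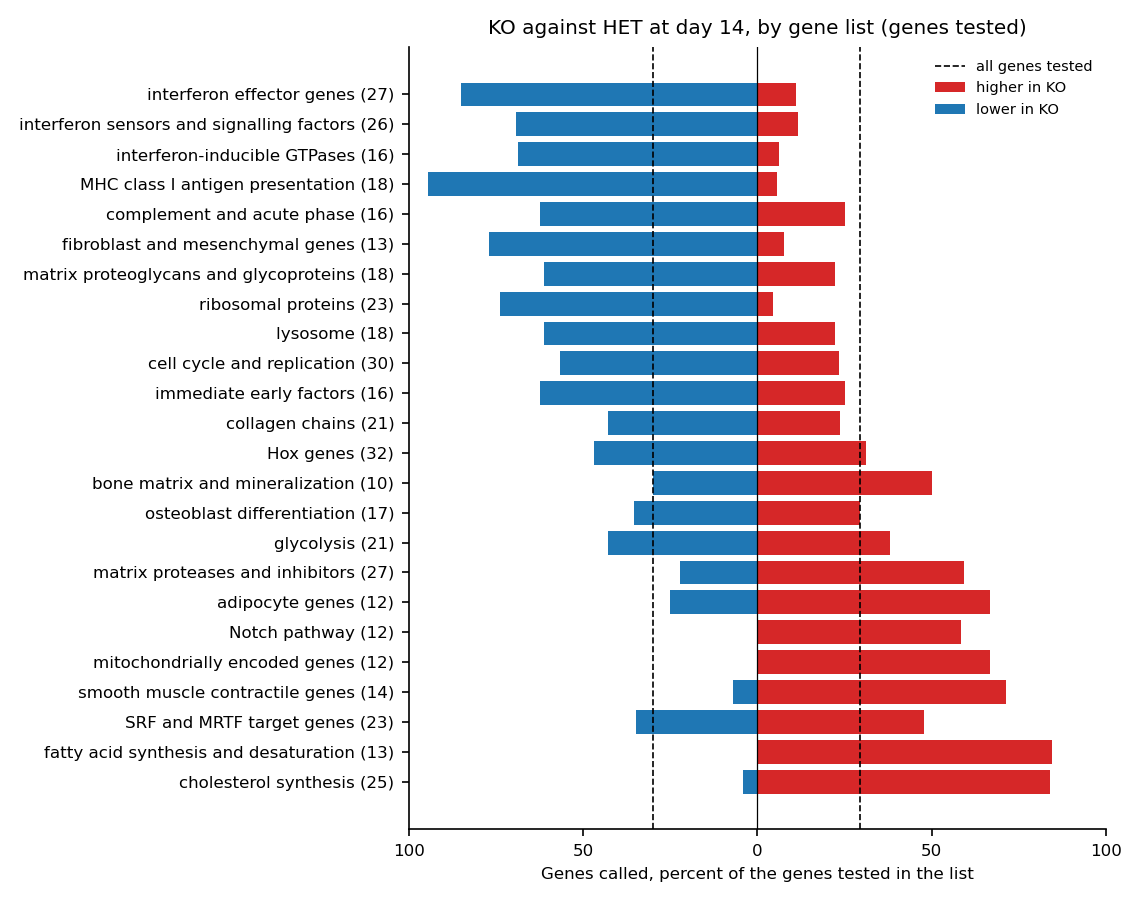
Percent of the tested genes of each list that were called higher (red, to the right) or lower (blue, to the left) in KO than in HET at day 14, with the number tested in brackets and the percentages over all genes as dashed lines. Interferon and MHC class I genes lie mostly to the left and lipid synthesis genes mostly to the right.

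Genes of the interferon response were lower in KO. Interferons bind receptors that activate STAT factors and IRF9, which switch on antiviral effector genes and antigen presentation. Of 27 tested effector genes, 3 were higher in KO and 23 lower, with a median change of -0.93. Without HET replicate 2, 3 were higher and 23 lower, and relative to neighbouring genes the counts were 3 higher and 23 lower. Oas2, a sensor enzyme that activates RNase L, stood at 234, 165 and 237 CPM in HET and 11.1, 9.10 and 9.96 in KO, a change of -4.39 ± 0.13. Oas1a, of the same enzyme family, stood at 77.7, 101 and 79.5 CPM in HET and 15.1, 17.4 and 14.2 in KO, a change of -2.47 ± 0.11. Rtp4 and Oasl2 changed by -1.66 ± 0.08 and -1.69 ± 0.07. In all 4, each KO library was below each HET library. Genes called higher were Mx1, a GTPase that blocks viral replication, at 10.4, 10.4 and 11.4 CPM in KO and 4.98, 3.47 and 5.50 in HET (1.20), Oasl1 (0.59) and Rsad2, the antiviral enzyme viperin, at 70.3, 68.7 and 75.8 CPM in KO and 59.2, 63.6 and 61.5 in HET (0.22). The call of Rsad2 was lost without KO replicate 3 (0.18) and without HET replicate 1 (0.19). HET had the highest mean of the 3 genotypes for 22 of the 27 effectors, against 31.8% of all genes, and WT was below both KO and HET for 23. The summed level of 12 macrophage and blood markers was also higher in HET, at 141 to 177 CPM, than in KO, at 119 to 126, with 37.2 to 39.5 in WT. Cd14 made up most of this sum; of the 4 members tested, 2 were higher and 2 lower in KO. Of the untested ones, Ptprc, the pan-leukocyte marker CD45, and Adgre1, the macrophage marker F4/80, held at most 17 and 5 counts in any group. The part of such cells was not tested.

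Upstream factors followed with smaller changes. Of 26 tested sensors and signalling factors, 3 were higher in KO and 18 lower, with a median of -0.50; without HET replicate 2, 1 was higher and 20 lower, and relative to neighbouring genes the counts were 1 higher and 20 lower. Irf7, the factor that amplifies interferon production, stood at 139, 152 and 149 CPM in HET and 69.4, 69.2 and 70.7 in KO, a change of -1.07 ± 0.08, and Irf9 changed by -0.95 ± 0.05. Zbp1, a sensor of Z-form nucleic acid, stood at 112, 124 and 116 CPM in HET and 20.6, 20.9 and 19.8 in KO, a change of -2.52 ± 0.15, and Tmem173, the DNA-sensing adaptor STING, changed by -1.77 ± 0.09. Jak1, a kinase of the receptors, was called higher, at 244, 237 and 239 CPM in KO and 145, 117 and 143 in HET (0.83). Ifnb1, which encodes interferon-beta, held at most 10 counts in any group and was not tested. Among 16 interferon-inducible GTPases, which attack vacuoles of intracellular pathogens, 1 was higher in KO and 11 lower, with a median of -0.80. Igtp stood at 68.1, 77.7 and 65.9 CPM in HET and 24.7, 20.9 and 24.7 in KO, a change of -1.59 ± 0.09. Irgm1 and Irgm2 changed by -1.07 ± 0.07 and -1.40 ± 0.09. Gbp2 was the 1 member called higher, at 50.9, 49.6 and 44.6 CPM in KO and 41.4, 35.2 and 37.6 in HET (0.35). Its change is near the median of 0.40 of the part of chromosome 3 that holds it, and relative to neighbouring genes 0 members of the list were called higher and 11 lower. Members of this family are similar in sequence and may share reads.

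MHC class I genes, whose products present peptides to T cells, were lower in KO almost throughout. Of 18 tested, 1 was higher in KO and 17 lower, with a median of -1.31; the counts were the same without HET replicate 2 and relative to neighbouring genes. H2-K1, a classical class I chain, stood at 1319, 1675 and 1303 CPM in HET and 236, 239 and 222 in KO, a change of -2.62 ± 0.08, and WT at 459, 502 and 529.6. Tap1, which pumps peptides into the endoplasmic reticulum, stood at 178, 179 and 166 CPM in HET and 61.3, 64.5 and 56.5 in KO, a change of -1.52 ± 0.06. H2-Q7 stood at 261, 298 and 264 CPM in HET and 2.37, 3.20 and 2.45 in KO, a change of -6.68 ± 0.12, and H2-Q6 changed by -2.87 ± 0.07. In these 4 genes the KO and HET libraries did not overlap. H2-M3, a class I molecule that presents formylated peptides, was the exception, at 24.6, 20.7 and 20.3 CPM in KO and 12.4, 16.6 and 12.7 in HET (0.66). KO had the lowest mean of the 3 genotypes for 16 of the 18 genes, against 35.8% of all genes. Class I genes differ between strains and resemble each other, so reads may be assigned to the wrong copy.

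The interferon-stimulated response element, the site of the STAT and IRF complexes, was looked for on both strands, as GAAA, any 2 bases and GAAA again, in the 250 bases before each gene start. It was present in 9 of the 22 effector genes in the promoter table (40.9%), in 9 of 9 GTPase genes (100%), in 2 of 21 sensors and signalling factors (9.52%) and in 3 of 16 class I genes (18.8%), against 2.98% of all 32851 promoters. Of these 23 genes, 21 were called lower and 2, Rsad2 and Gbp2, higher, against 30.1% of all genes lower. In the whole lists, 23 of 27 tested effectors and 11 of 16 GTPases were lower. So were 18 of 26 sensors and signalling factors and 17 of 18 class I genes. Whether the element goes with the lower calls was not tested. Rsad2 and Gbp2 are printed below the lower members Oas1a and Igtp, with the matches in capitals. A match on the other strand reads TTTC, 2 bases and TTTC. In Oas1a 2 matches overlap within 1 run. The windows, from the same RefSeq table, are chr5:120907526-120907775, minus strand for Oas1a; chr11:58199306-58199555, plus strand for Igtp; chr12:26456453-26456702, minus strand for Rsad2; and chr3:142620413-142620662, plus strand for Gbp2. The first matches start 20, 34, 120 and 59 bases before the gene starts, in that order.
Oas1a: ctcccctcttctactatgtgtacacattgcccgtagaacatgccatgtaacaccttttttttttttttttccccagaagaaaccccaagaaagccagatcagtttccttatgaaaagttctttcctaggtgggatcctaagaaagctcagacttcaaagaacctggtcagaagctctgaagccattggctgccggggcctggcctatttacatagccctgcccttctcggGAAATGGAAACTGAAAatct
Igtp: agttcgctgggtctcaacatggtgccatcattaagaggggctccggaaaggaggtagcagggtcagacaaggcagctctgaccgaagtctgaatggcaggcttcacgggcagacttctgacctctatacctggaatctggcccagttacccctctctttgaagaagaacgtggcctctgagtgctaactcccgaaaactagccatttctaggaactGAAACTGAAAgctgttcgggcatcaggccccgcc
Rsad2: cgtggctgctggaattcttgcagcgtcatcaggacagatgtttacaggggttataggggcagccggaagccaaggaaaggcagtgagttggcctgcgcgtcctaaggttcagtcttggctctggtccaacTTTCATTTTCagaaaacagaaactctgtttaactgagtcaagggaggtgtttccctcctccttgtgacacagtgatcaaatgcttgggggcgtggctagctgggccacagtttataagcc
Gbp2: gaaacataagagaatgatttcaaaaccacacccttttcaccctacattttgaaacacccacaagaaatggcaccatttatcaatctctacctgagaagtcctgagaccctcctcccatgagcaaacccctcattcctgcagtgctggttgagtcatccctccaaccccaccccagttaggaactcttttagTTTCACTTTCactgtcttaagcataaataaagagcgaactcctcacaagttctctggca

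**Figure D4:**
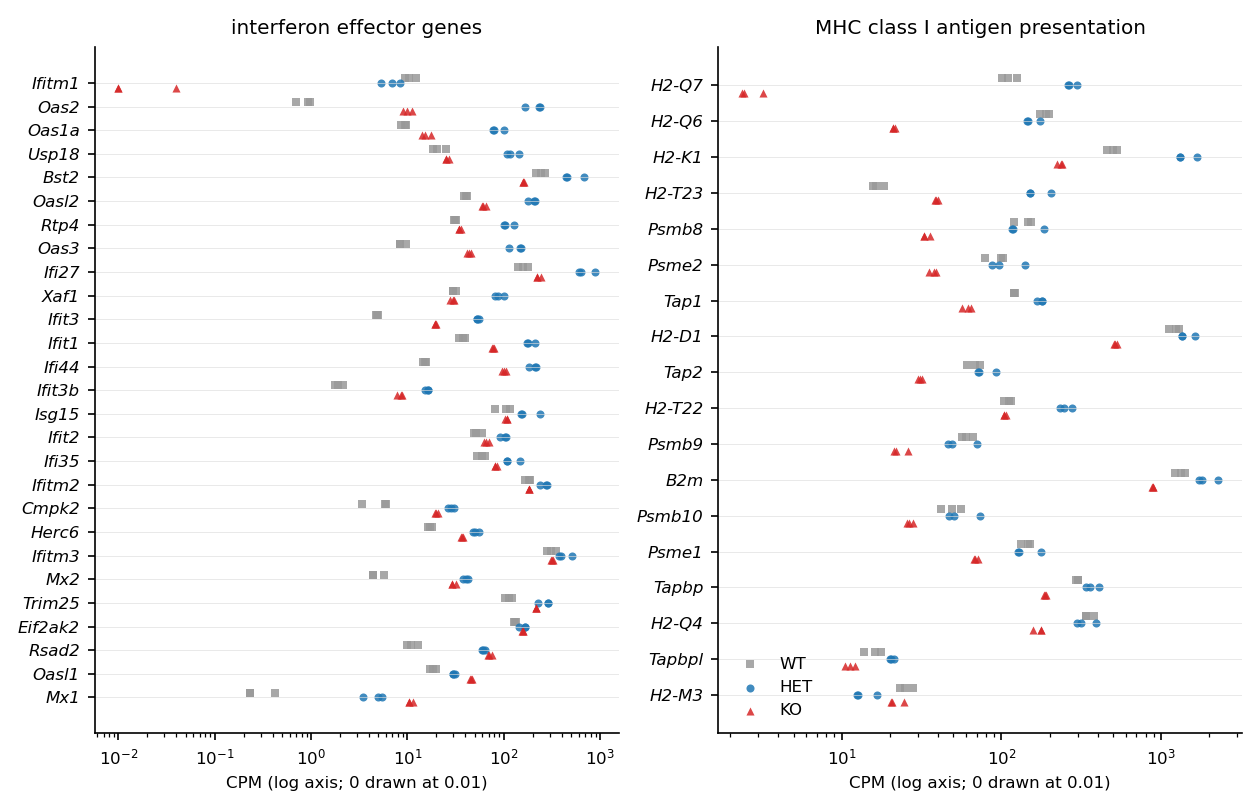
CPM of each tested interferon effector gene (left) and MHC class I gene (right) in each library of WT, HET and KO at day 14, on a log axis with 0 drawn at 0.01, ordered by the change from HET to KO. KO lies left of HET except in Eif2ak2, where the groups overlap, and in Rsad2, Oasl1, Mx1 and H2-M3.

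Other inflammatory genes split between the directions. Of 16 tested complement and acute phase genes, 4 were higher in KO and 10 lower, with a median of -0.69. Hp, the haemoglobin scavenger haptoglobin, stood at 2006, 2879 and 2011 CPM in HET and 338, 341 and 324 in KO, a change of -2.78 ± 0.11, and Saa1 changed by -3.90 ± 0.21. Against them, Ptx3, a soluble pattern receptor, stood at 809, 797 and 780.0 CPM in KO and 106, 149 and 109 in HET, a change of 2.71 ± 0.10, Orm1, the acute phase carrier orosomucoid, changed by 2.57 ± 0.09, and the complement gene C4b by 4.42 ± 0.20. Among 21 chemokines, 7 were higher in KO and 10 lower. Cxcl12, a ligand that retains blood progenitors in marrow, stood at 124, 118 and 121 CPM in HET and 28.8, 34.7 and 31.4 in KO, a change of -1.94 ± 0.06, and Cxcl5 changed by -1.03 ± 0.10. Cxcl9, an interferon-gamma target, moved the other way, at 13.0, 15.3 and 13.7 CPM in KO and 1.25, 1.74 and 1.62 in HET (3.19). Of 23 interleukins and receptors, 8 were higher and 8 lower. Within that list, the ligand Il33 and its receptor Il1rl1 moved in opposite directions. Il33, an alarmin released from stromal nuclei, stood at 282, 284 and 283 CPM in KO and 7.76, 9.41 and 10.4 in HET, a change of 4.94 ± 0.08. Il1rl1, also known as ST2, stood at 61.3, 56.7 and 65.1 CPM in HET and 1.90, 1.28 and 1.94 in KO, a change of -5.14 ± 0.14. Il6 changed by 1.08 ± 0.11 and Lif by 1.16 ± 0.07, while its receptor Lifr changed by -3.03 ± 0.13.

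Extracellular matrix genes were prominent on both sides. Of 21 collagen chains tested, 5 were higher in KO and 9 lower, with a median of -0.36. Col1a1, the partner chain of Col1a2, stood at 1734, 1439 and 1656 CPM in HET and 986, 968 and 958 in KO, a change of -0.73 ± 0.06. Col3a1, which forms fibrils with type I collagen, stood at 450.1, 428 and 445 CPM in HET and 102, 105 and 106 in KO, a change of -2.08 ± 0.04, and Col5a2 changed by -1.10 ± 0.05. The fibrillar chains named here were thus lower in each KO library. Higher chains included Col8a1, a network collagen, at 175, 176 and 170.4 CPM in KO and 44.2, 38.3 and 43.7 in HET (2.05), and the anchoring collagen Col7a1 (1.53). Among 15 collagen processing enzymes, 8 were lower, including the crosslinking oxidase Loxl2 (-1.52 ± 0.06) and the procollagen protease Bmp1 (-1.41 ± 0.06), and 5 were higher.

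Matrix proteoglycans and glycoproteins were lower in 11 of 18 tested and higher in 4, with a median of -0.75. Bgn, the small leucine-rich proteoglycan biglycan of bone matrix, stood at 527, 437 and 542 CPM in HET and 1.18, 1.46 and 0.830 in KO, a change of -8.77 ± 0.17. Its relative Dcn, decorin, stood at 625, 731 and 630.4 CPM in HET and 44.3, 43.7 and 39.5 in KO, a change of -3.96 ± 0.06. Thbs2, thrombospondin-2, stood at 112, 91.9 and 115 CPM in HET and 0.761, 1.42 and 0.949 in KO, a change of -6.68 ± 0.20. WT levels of these genes, 89.5 ± 6.23, 503 ± 12.8 and 45.8 ± 4.71 CPM (SD, n = 3), lay between HET and KO. Fn1, fibronectin, was called higher, at 1162, 1224 and 1209.8 CPM in KO and 930.2, 446 and 943 in HET, a change of 0.63 ± 0.19 that was 0.35 without HET replicate 2. The call was lost in a fit of the 6 libraries alone. Matrix proteases and their inhibitors leaned the other way, with 16 of 27 higher and 6 lower and a median of 0.65. Mmp2 and Mmp14, a gelatinase and its activator, were among the members that fell, by 2.13 ± 0.05 and 1.77 ± 0.04 on the log2 scale, as was Mmp13 above. Adamts9, a versican-cutting protease, stood at 53.2, 53.9 and 52.1 CPM in KO and 5.75, 4.73 and 7.30 in HET, a change of 3.15 ± 0.14, and Adamts2, which trims procollagen, changed by 1.94 ± 0.11.

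Adhesion genes changed member by member. Of 17 integrins, 8 were higher in KO and 4 lower. Itga3, a laminin receptor subunit, stood at 171, 178 and 180.0 CPM in KO and 62.7, 50.7 and 58.9 in HET (1.61), and Itga5, the fibronectin receptor subunit, changed by 0.61 ± 0.05. Itgb8, which activates latent TGF-beta, stood at 66.9, 43.3 and 64.6 CPM in HET and 6.77, 7.32 and 7.23 in KO, a change of -3.04 ± 0.18. Of 17 laminin and basement membrane genes, 7 were higher in KO and 2 lower, and 6 and 5 without HET replicate 2. Relative to neighbouring genes the counts were 7 higher and 5 lower. Lamb2 and Lama4, laminin chains, changed by 1.30 ± 0.06 and 1.85 ± 0.12. Of 13 cadherins, 5 were higher and 4 lower, or 4 and 6 without HET replicate 2. Cdh2, N-cadherin, stood at 96.3, 95.4 and 96.8 CPM in KO and 31.7, 26.4 and 33.6 in HET (1.65), and Cdh11, the osteoblast cadherin, stood at 11.2, 11.2 and 12.9 CPM in HET and 2.75, 2.88 and 1.90 in KO (-2.24).

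The labels call the cells osteoblasts. Several defining osteoblast genes were at or near 0 in both groups. Sp7, the factor required for osteoblast formation, had 0 counts in HET and 1 in KO. Bglap, osteocalcin, had 10 counts in HET and 3 in KO, and Ibsp, bone sialoprotein, had none in either. Runx2 was expressed, at 33.0, 31.0 and 31.5 CPM in KO and 31.7, 27.0 and 33.1 in HET, and was not called (0.05 ± 0.08, edgeR adjusted p = 0.574). Spp1, osteopontin, stood at 1782, 1730.4 and 1715 CPM in KO and 1425, 1898 and 1439 in HET and was not called (0.13 ± 0.09, edgeR adjusted p = 0.203); without HET replicate 2 its change was 0.28 and it was called. Sp7, Bglap and Ibsp were thus at or near 0 in both genotypes, while Runx2 and Spp1 were expressed in both.

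Other bone genes did differ. Alpl, the alkaline phosphatase that provides phosphate for mineral, stood at 30.2, 31.6 and 34.0 CPM in KO and 8.10, 8.52 and 8.25 in HET, a change of 1.95 ± 0.09, against 132, 118 and 133 in WT. Mgp, an inhibitor of calcification, stood at 52.9, 55.6 and 56.2 CPM in KO and 0.431, 1.21 and 0.947 in HET, a change of 6.0 ± 0.28. Enpp1 and Ank, an enzyme and a transporter that supply the mineralization inhibitor pyrophosphate, were lower in KO. Enpp1 stood at 81.9, 56.1 and 80.1 CPM in HET and 21.6, 22.7 and 21.9 in KO (-1.72). Ank stood at 48.9, 49.4 and 55.2 CPM in HET and 26.3, 23.7 and 24.9 in KO (-1.03). In all, 5 of 10 tested bone matrix and mineralization genes were higher and 3 lower, and 7 of the 17 members were too scarce to test. Of 17 osteoblast differentiation genes, 5 were higher in KO and 6 lower. Msx2 stood at 16.3, 15.9 and 15 CPM in KO and 2.59, 3.68 and 2.30 in HET (2.47), opposite to Msx1, and Twist1 changed by 0.94 ± 0.09 while Twist2 changed by -2.44 ± 0.18. Tnfsf11, the osteoclast-inducing ligand RANKL, stood at 13.0, 14.5 and 11.8 CPM in HET and 4.99, 7.23 and 5.65 in KO (-1.14).

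Fat and cartilage genes were looked at as other fates open to these cells. Of 12 tested adipocyte genes, 8 were higher in KO and 3 lower, with a median of 0.58. Fabp4, a fatty acid carrier, stood at 417, 430.1 and 412 CPM in KO and 221, 344 and 220.4 in HET, a change of 0.68 ± 0.13, which was 0.92 without HET replicate 2. Plin2, a droplet coat protein, stood at 706, 706 and 702 CPM in KO and 384, 439 and 399.5 in HET (0.79), and Lpl, which releases fatty acids from lipoproteins, at 63.6, 65.4 and 62.1 CPM in KO and 31.0, 31.1 and 25.1 in HET (1.13). Pparg, the master factor of fat cells, was scarce, at 3.21, 2.42 and 3.36 CPM in KO and 2.16, 1.95 and 1.31 in HET (0.74 ± 0.26); its call was lost without KO replicate 1, KO replicate 3 or HET replicate 3. Adipoq and Plin1 held at most 1 and 4 counts in a group. Sox9, the cartilage factor, had a mean of 30.5 CPM in KO and 20.1 in HET, a change of 0.60 ± 0.11, whereas Acan and Col9a1 were too scarce to test, with at most 19 and 6 counts.

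Genes that mark fibroblasts and mesenchymal cells were lower in KO. Of 13 tested, 1 was higher in KO and 10 lower, with a median of -1.20; without HET replicate 2, 2 were higher and 10 lower, and relative to neighbouring genes the counts were 1 higher and 10 lower. Eng, the TGF-beta coreceptor endoglin, stood at 124, 113 and 125 CPM in HET and 2.62, 2.74 and 2.37 in KO, a change of -5.55 ± 0.12. Pdgfrb, a growth factor receptor of mesenchyme and pericytes, stood at 156, 117 and 153 CPM in HET and 13.4, 17.4 and 17.4 in KO, a change of -3.14 ± 0.11. Prrx1, a homeobox factor of limb mesenchyme, stood at 106, 83.3 and 108 CPM in HET and 19.8, 20.2 and 17.9 in KO, a change of -2.37 ± 0.09, and Cd34 changed by -6.20 ± 0.34. All KO libraries were below all HET libraries for these 4 genes. The summed CPM of the 18 listed genes was 467 to 480 in KO, 1215 to 1269 in HET and 584 to 615 in WT.

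Lipid synthesis genes were higher in KO. Cells make cholesterol from acetyl-CoA through the mevalonate pathway and fatty acids through Acly, Acaca and Fasn, and SREBP factors control both sets. Of 25 cholesterol synthesis genes, 21 were higher in KO and 1 lower, with a median of 0.59; without HET replicate 2, 22 were higher and 1 lower, and relative to neighbouring genes the counts were 23 higher and 0 lower. Idi1, isopentenyl diphosphate isomerase, stood at 832, 804 and 780.1 CPM in KO and 272, 328 and 262 in HET, a change of 1.49 ± 0.07. Insig1, which holds SREBP back when sterols are plentiful, stood at 460.0, 464 and 452 CPM in KO and 262, 240.3 and 256 in HET, a change of 0.86 ± 0.05. Hmgcs1, a synthase of the mevalonate pathway, stood at 498, 496 and 491 CPM in KO and 311, 321 and 301 in HET, a change of 0.67 ± 0.04. All 3 separated the groups. Ebp, an isomerase on chromosome X, was the 1 member called lower (-0.49 ± 0.10). HET had the lowest mean of the 3 genotypes for 20 of the 25 genes, against 31.9% of all genes.

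The shift in fatty acid synthesis was larger. Of 13 genes, 11 were higher in KO and none lower, with a median of 0.93. Without HET replicate 2 the counts were the same and the median was 0.75. HET had the lowest mean of the 3 genotypes for 9 of the 13 genes, against 31.9% of all genes. Fasn, fatty acid synthase, stood at 1430.0, 1418 and 1429.7 CPM in KO and 597, 386 and 560.3 in HET, a change of 1.47 ± 0.12. The desaturase Scd2 stood at 2177, 2176 and 2159 CPM in KO and 898, 768 and 877 in HET, a change of 1.36 ± 0.06. Its relative Scd1 stood at 469.9, 461 and 463 CPM in KO and 189, 143 and 187 in HET, a change of 1.43 ± 0.08. Elovl6, an elongase, changed by 1.61 ± 0.09 and Acly, which supplies acetyl-CoA, by 0.85 ± 0.07. Every KO library was above every HET library for these 5 genes. Elovl5 and Mid1ip1 were not called. Among 11 genes of cholesterol efflux and LXR response, 4 were higher and 2 lower, with a median of -0.08. The sterol regulatory element, searched as ATCAC, any base and CCAC in the same promoter windows, was in none of the 17 cholesterol synthesis genes in the table and in 0.192% of all promoters. At so low a rate, none was likely to be found in 17 promoters, so the search could not show a lack of the element. Variants of the sequence were not searched.

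**Figure D5:**
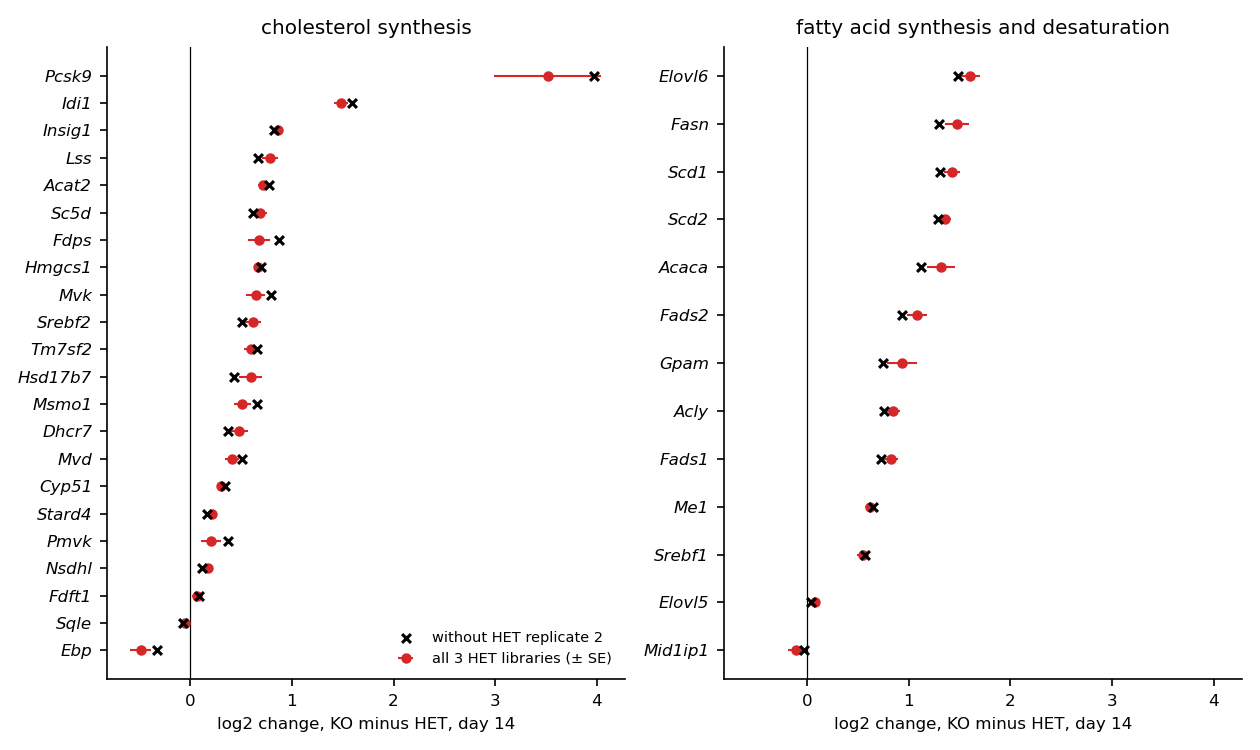
Log2 change from HET to KO at day 14 for genes of cholesterol synthesis (left) and fatty acid synthesis (right), with 3 HET libraries (points ± SE) and without HET replicate 2 (crosses). Most points lie above 0, and leaving out HET replicate 2 moved none of the called genes across 0.

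Of 8 iron genes, 5 were higher in KO and 1 lower. Tfrc, the transferrin receptor, stood at 295, 294 and 291 CPM in KO and 183, 159 and 178 in HET (0.76), and Steap3, the reductase of its endosome, at 82.3, 85.8 and 86.0 CPM in KO and 26.6, 24.2 and 27.9 in HET (1.69). Metallothioneins, small proteins that bind zinc and copper, were also higher. Mt2 stood at 1270.1, 1326 and 1377 CPM in KO and 324, 507 and 336 in HET, a change of 1.77 ± 0.13, and Mt1 changed by 1.35 ± 0.13. Of 24 glutathione and redox genes, 10 were higher in KO and 5 lower. Nqo1, a quinone reductase, stood at 17.6, 19.5 and 15.2 CPM in KO and 1.25, 2.68 and 1.49 in HET (3.29), Hmox1, haem oxygenase, changed by 0.73 ± 0.06, and Gpx7, a peroxidase of the endoplasmic reticulum, stood at 12, 15.9 and 12.3 CPM in HET and 0.0846, 0.0457 and 0.198 in KO (-6.84). Of 5 NADPH oxidase genes tested, 2 were higher and 2 lower. Cyba, the partner subunit of Cybb, stood at 129, 191 and 129.5 CPM in HET and 0.211, 0.503 and 0.514 in KO, a change of -8.49 ± 0.38, with 268 ± 26.2 CPM in WT.

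Energy metabolism showed no single direction. Of 21 glycolysis genes, 8 were higher in KO and 9 lower. Slc2a1, the glucose transporter GLUT1, stood at 226, 230.0 and 233 CPM in KO and 88.9, 89.8 and 87.8 in HET (1.37 ± 0.04), and the hexokinase Hk2 changed by 0.95 ± 0.07. Further down the pathway, Tpi1 (-0.88 ± 0.07), Ldha (-0.71 ± 0.08) and Eno2 (-1.76 ± 0.06) were lower. Of 15 hypoxia genes, 7 were higher in KO and 6 lower. Nuclear respiratory chain genes were centred on a median of 0.00, with 8 of 22 higher and 5 lower, but 14 higher and 4 lower without HET replicate 2. Of 12 tested genes encoded in mitochondria, 8 were higher and none lower, or 9 and 1 without HET replicate 2. The complex I subunit mt-Nd1 stood at 1951, 1981 and 2008 CPM in KO and 1069.9, 1207 and 1193 in HET (0.78 ± 0.06). Their summed CPM was 8529 to 8855 in KO, 6342 to 7690 in HET and 3716 to 4230 in WT, and the part of RNA quality in this was not tested. Of 19 stress genes of the unfolded protein and amino acid responses, 11 were higher in KO and 5 lower. The ATF4 targets Slc7a11, a cystine transporter, and Chac1 changed by 2.04 ± 0.11 and 1.68 ± 0.05, and the chaperones Pdia4 and Pdia6 of the endoplasmic reticulum by -0.93 ± 0.04 and -0.55 ± 0.07.

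Lysosomal genes were lower in 11 of 18 tested and higher in 4, with a median of -0.33. Ctsk, the collagen-degrading cathepsin K, stood at 21.1, 30.7 and 22.1 CPM in HET and 2.03, 1.69 and 2.02 in KO, a change of -3.68 ± 0.20. Gla, alpha-galactosidase, is on chromosome X and stood at 160.0, 174 and 174 CPM in HET and 55.1, 57.0 and 55.5 in KO (-1.60), while Ctsl, cathepsin L, was called higher (0.26 ± 0.08), but not in a fit of the 6 libraries alone. Relative to neighbouring genes, 9 were lower and 4 higher.

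Proliferation genes were more often lower in KO. Of 30 cell cycle and replication genes, 7 were higher in KO and 17 lower, with a median of -0.21; relative to neighbouring genes the counts were 4 higher and 13 lower. Ccnd2, cyclin D2, stood at 114, 81.2 and 107 CPM in HET and 23.1, 24.7 and 24.8 in KO (-2.06 ± 0.10), and E2f1, a factor of S phase entry, at 113, 122 and 106 CPM in HET and 55.2, 51.1 and 56.9 in KO (-1.06 ± 0.06). Subunits of the MCM replication helicase differed in sign. Mcm2 and Mcm4 changed by 0.69 ± 0.05 and 0.39 ± 0.04, and Mcm6 by -0.55 ± 0.04. Of 18 CDK inhibitors and p53 targets, 4 were higher in KO and 11 lower. Mdm2, which degrades p53, stood at 342, 320.0 and 337 CPM in HET and 185, 184 and 182 in KO (-0.86 ± 0.04). Cdkn1c, the inhibitor p57, stood at 6.47, 6.73 and 5.14 CPM in HET and had no count in KO, at least 143-fold lower. Cdkn2b, the inhibitor p15, went the other way (0.97 ± 0.11).

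Ribosomal protein genes were lower in 17 of 23 tested and higher in 1, with a median of -0.65, or 2 higher and a median of -0.44 without HET replicate 2, the library with the highest share of these genes. Rps4x stood at 1374, 1965 and 1384 CPM in HET and 755, 775 and 760.2 in KO (-1.04 ± 0.11). Rps2 stood at 873, 1196 and 881 CPM in HET and 24.2, 24.6 and 27.1 in KO (-5.28 ± 0.13), and WT was far below HET too, at 26.3, 34.6 and 38.2. Both have processed copies in the genome, so their counts depend on how shared reads were assigned. Immediate early factors were lower in 10 of 16 and higher in 4. Jun changed by -0.82 ± 0.05 and Atf3 by -1.20 ± 0.06, and Fosl1, an AP-1 subunit, by 0.93 ± 0.06.

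Genes of the signalling pathways of bone and limb development were called in both directions. Of 32 Wnt pathway genes tested, 11 were higher and 11 lower. The secreted inhibitor Sfrp1 stood at 61.1, 48.2 and 59.6 CPM in HET and 1.95, 1.55 and 1.66 in KO, a change of -5.03 ± 0.15, and the agonist Rspo2 changed by -3.59 ± 0.31. Axin2, a target and brake of the beta-catenin pathway, stood at 3.93, 4.85 and 5.89 CPM in KO and 0.239, 0.158 and 0.0901 in HET (4.89 ± 0.47), the agonist Rspo3 at 43.3, 37.8 and 43.1 CPM in KO and 12.4, 14.7 and 11.8 in HET (1.68 ± 0.08), and Tcf7, a nuclear partner of beta-catenin, at 15, 13.2 and 13.7 CPM in KO and 5.60, 6.73 and 6.94 in HET (1.12 ± 0.10). Of 28 BMP and TGF-beta genes, 12 were higher in KO and 7 lower. The BMP antagonist Grem1 stood at 257, 253 and 257 CPM in KO and 106, 92.1 and 100.3 in HET (1.36 ± 0.05), the activin antagonist Fst changed by 2.31 ± 0.11, and the ligand Bmp4 by -1.36 ± 0.14. Ltbp2, a binding protein of elastic microfibrils, stood at 56.4, 44.6 and 54.2 CPM in HET and 1.95, 2.42 and 2.1 in KO (-4.59 ± 0.13).

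Fgf7, a growth factor that mesenchyme sends to epithelium, stood at 144, 156 and 146 CPM in HET and 5.92, 3.34 and 4.62 in KO, a change of -4.99 ± 0.13, while 3 ligands of the EGF receptor, Ereg, Tgfa and Areg, changed by 1.5 ± 0.07, 2.74 ± 0.21 and 1.59 ± 0.17. The receptor Egfr itself stood at 89.4, 52.8 and 85.8 CPM in HET and 31.8, 32.8 and 36.8 in KO (-1.17 ± 0.15). Ligands and receptor thus moved in opposite directions. In all, 7 of 22 FGF and EGF genes were higher and 7 lower. Of 12 Notch pathway genes, 7 were higher and none lower, with a median of 0.61; without HET replicate 2, 7 were higher and 1 lower, with a median of 0.39. The ligand Dll1 stood at 9.94, 8.64 and 9.92 CPM in KO and 1.01, 2.68 and 2.34 in HET, a change of 2.24 ± 0.31. The ligand Jag1 stood at 6.89, 7.64 and 6.52 CPM in KO and 3.26, 3.05 and 3.33 in HET, a change of 1.12 ± 0.17. Of 11 genes of the IGF axis, 6 were lower and 2 higher. Igfbp4, a binding protein that holds IGF back, stood at 237, 293 and 227 CPM in HET and 6.22, 7.64 and 7.27 in KO, a change of -5.16 ± 0.11. Of 9 Hedgehog genes, 3 were higher and 2 lower, and without HET replicate 2, 3 were higher and 4 lower. Gli2, a transcription factor of the pathway, stood at 32.8, 18.9 and 32.5 CPM in HET and 5.54, 5.95 and 6.25 in KO (-2.25 ± 0.19).

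Positional genes differed strongly. Hox genes, which record the position of a cell along the body and limb axes, were lower in 15 of 32 tested and higher in 10. Hoxa11, of the limb, stood at 16.6, 21.9 and 18.1 CPM in HET and had no count in KO, at least 443-fold lower. Hoxc10 stood at 31.8, 34.7 and 29.4 CPM in HET and 0.550, 1.05 and 1.19 in KO (-5.09 ± 0.21), Hoxc6 at 33.0, 32.3 and 32.4 CPM in HET and 4.65, 3.98 and 5.42 in KO (-2.79 ± 0.10) and Hoxb13 at 79.7, 119 and 83.4 CPM in HET and 10.9, 12.3 and 10.2 in KO (-3.08 ± 0.15). Hoxd8 and Hoxd9, neighbours in the D cluster, were higher. Hoxd8 stood at 17.7, 18.1 and 15.8 CPM in KO and 0.0479, 0 and 0 in HET; the single HET count gives 1064-fold, with a 95% counting interval of 191 to 42075. Hoxd9 changed by 5.32 ± 0.72. Of 36 other patterning factors tested, 8 were higher in KO and 14 lower. Alx1, of craniofacial mesenchyme, stood at 33.8, 29.9 and 35.4 CPM in KO and 2.01, 1.84 and 1.67 in HET (4.17 ± 0.15), and Foxd1 at 81.6, 76.3 and 78.8 CPM in KO and 13.3, 15.7 and 14.7 in HET (2.44 ± 0.08). Pax3, of dermomyotome and neural crest, stood at 82.9, 80.1 and 81.5 CPM in HET and 27.9, 27.6 and 27.8 in KO (-1.55 ± 0.07), and Irx5 at 16.7, 19.4 and 19.1 CPM in HET and 3.93, 4.16 and 5.14 in KO (-2.05 ± 0.11). Of 18 imprinted genes, which are read from 1 parental copy, 4 were higher and 7 lower. Peg10 and Peg3 changed by 2.15 ± 0.15 and 2.81 ± 0.23, and Cdkn1c and Dcn are members of this list as well.

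Both groups received dexamethasone and forskolin, and genes known to respond to them were tested for a difference between the genotypes. Of 18 glucocorticoid response genes, 8 were higher in KO and 5 lower. Klf15 stood at 54.5, 53.7 and 56.1 CPM in KO and 9.48, 10.2 and 10.1 in HET (2.46 ± 0.08) and Glul, glutamine synthetase, at 278, 286 and 283 CPM in KO and 76.6, 76.0 and 74.9 in HET (1.90 ± 0.05), but Tsc22d3, the leucine zipper GILZ, stood at 164, 202 and 158 CPM in HET and 105, 109 and 103 in KO (-0.72 ± 0.08). Of 15 cAMP response genes, 6 were higher in KO and 3 lower. Pde4b, which degrades cAMP, changed by 0.78 ± 0.07 and Nr4a2 by 1.34 ± 0.15. Of 5 vitamin D genes, 3 were lower and 1 higher. Cyp24a1, which inactivates vitamin D and is its classic target, stood at 108, 106 and 104 CPM in HET and 64.4, 60.5 and 62.8 in KO (-0.76 ± 0.07), against 446 ± 8.19 CPM in WT. Of 11 prostaglandin genes, 5 were lower and 4 higher. Ptgis, prostacyclin synthase, stood at 16.5, 17.3 and 16.4 CPM in HET and 0.0423, 0.0915 and 0.0395 in KO (-8.10 ± 0.73), and the cyclooxygenase Ptgs2 had means of 203 and 154 CPM (-0.40 ± 0.04).

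Of the chromatin regulators tested, only Cbx7 was called with a change of 2-fold or more. Of 16 genes of the remodelling complexes that contain actin, 5 were higher in KO and 6 lower, with log2 changes between -0.55 and 0.84. Smarca4, the ATPase BRG1, stood at 332, 327 and 316 CPM in HET and 258, 266 and 271 in KO (-0.29 ± 0.04), Smarcc1, its scaffold, at 217, 221 and 229 CPM in KO and 140.2, 108 and 140.4 in HET (0.78 ± 0.08), and Actl6a, the actin-related subunit BAF53a, at 103, 106 and 111 CPM in KO and 72.0, 80.8 and 69.7 in HET (0.52 ± 0.06). Pbrm1 and Actr8, both on chromosome 14, changed by -0.39 ± 0.06 and -0.55 ± 0.10; relative to neighbouring genes, 1 member of the list was lower in place of 6. Of 21 polycomb and DNA methylation genes, 7 were higher in KO and 5 lower; without HET replicate 2, 7 were higher and 8 lower, and relative to neighbouring genes the counts were 5 higher and 3 lower. Ezh2, the H3K27 methyltransferase, changed by -0.43 ± 0.07, its partner Suz12 by 0.43 ± 0.05, and Cbx7 by 1.13 ± 0.10.

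Markers of other cell types were mostly scarce. Of the 12 macrophage and blood markers, 4 could be tested. Cd68 stood at 35.8, 39.0 and 38.9 CPM in KO and 7.04, 7.04 and 7.17 in HET (2.42 ± 0.10) and Cd14 at 136, 168 and 133 CPM in HET and 82.4, 77.8 and 84.8 in KO (-0.83 ± 0.08), both of which fibroblasts can also express. The 11 endothelial markers summed to 6.77 to 8.04 CPM in KO and 9.87 to 10.5 in HET, and the 10 skeletal muscle markers to 16.4 to 18.8 and 16.6 to 20.1. The 12 epithelial markers summed to 15.8 to 16 CPM in KO and 5.72 to 8.68 in HET, with Krt14, a keratin of basal epidermis, at 10.3, 9.28 and 9.80 CPM in KO and 0, 0.315 and 0.0451 in HET. The 12 neural markers summed to 12.3 to 12.7 CPM in KO and 3.02 to 6.05 in HET, with the microtubule protein Map2 at 10.8, 11.0 and 10.4 CPM in KO and 0, 0.315 and 0.0451 in HET. Krt14 and Map2 thus held most of the difference in their sums, and the other called members went the other way. Of 6 epithelial markers tested 1 was higher and 2 lower, and of 4 neural markers 1 was higher and 3 lower; without HET replicate 2, each list had 1 higher and 1 lower. The part of other cell types in the results was not tested.

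Sex-linked genes set the groups apart as well. Xist (chrX:103460366-103483254), the RNA that silences 1 X chromosome in female cells, stood at 195, 101 and 191 CPM in HET and 0, 0.0457 and 0 in KO, with 0, 0.0464 and 0.0935 in WT; HET replicate 2 was the lowest of the HET libraries. Ddx3y and Eif2s3y, genes of the Y chromosome, had no count in any group, and Kdm5d and Uty at most 2 and 2. The X-linked genes Kdm6a, Kdm5c and Eif2s3x, which escape silencing, changed by -0.79 ± 0.08, -0.70 ± 0.14 and -0.43 ± 0.05. The number of X chromosomes in the cells was not measured here, and its part in the lower level of X-linked genes in KO was not tested.

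Genes often used for normalization were called in both directions. Of 10 control genes, 3 were higher in KO and 4 lower, against 29.4% and 30.1% of all genes. None of these calls reached 2-fold, and the median change was -0.12. Without HET replicate 2, 5 were higher and 4 lower. Gapdh stood at 230.1, 224 and 239 CPM in KO and 231, 308 and 247 in HET and was not called (-0.18 ± 0.09, edgeR adjusted p = 0.104). Hprt, on chromosome X, stood at 131, 129 and 125 CPM in KO and 159, 204 and 145 in HET (-0.40 ± 0.10), and Tbp at 55.4, 53.6 and 59.0 CPM in KO and 41.4, 36.2 and 39.1 in HET (0.53 ± 0.07).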

How the data were processed

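RNA sequencing libraries were compared between 3 KO and 3 HET samples of day 14, grouped by their labels. Per the submitters' processing notes, tools named are TopHat2 2.1.0, HTSeq and DESeq2, with genome build GRCm38.p4. The deposited files hold whole-number counts of reads per gene, made by the authors before any normalization. They list 46603 gene IDs, of which 46005 were matched to a symbol in the reference table; the other 598 held 0.0762% of counts and stayed in the fit. Libraries were made from total RNA with the TruSeq RNA v2 kit, per the labels' protocols; it does not mark strand, so a gene and its antisense partner cannot be told apart.

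Counts of all 15 libraries were fitted with edgeR 4.0.16 (R 4.3.3): filterByExpr over the 5 groups, TMM scaling, robust quasi-likelihood F test of KO minus HET, Benjamini-Hochberg adjustment over all 15296 genes. Fitting all groups shares the estimate of spread; the biological coefficient of variation was 8.33%. CPM used TMM-scaled library sizes. Standard errors are from a Wald approximation with the variance never below counting error. Counting intervals and floors (95%, 3 counts) cover counting error only. On simulated data for this comparison (15025 genes), 68%, 86%, 98% and 100% of genes changed 1.5-, 2-, 4- and 8-fold were recovered (50 each), with 11 of 14825 unchanged genes called. The changed genes were few and were drawn from well-counted ones. The simulation held no outlying library such as HET replicate 2 and no shifts along chromosomes, so these rates may not hold here. Alternatives were DESeq2 1.42.0, other scalings and filters, the 6 libraries alone, a replicate block, and each library left out.

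Genes were named by rule: the actins, the 12 largest log2 changes and 6 largest CPM changes in each direction, a fixed set (such as Runx2, Alpl, Irf7 and Xist), up to 4 higher and 4 lower called members of each list by smallest adjusted p, and members too scarce to test. Rac1, Eif2ak2, Elovl5 and Mid1ip1 fall outside it and were named after their values were seen. Some genes that the rule names, and their points in the plot of lipid genes, are not reported here. The members and lists were chosen with earlier results of these data known. Of the promoter table (32851 RefSeq promoters), the 250 bases before each gene start were searched. Figures were drawn with matplotlib 3.10.9. Day 4 libraries entered the fit only.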

Additional observations from a re-analysis of the deposited data

How the results depend on the processing

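The number of genes called in KO against HET was 9104 and stayed within 1.5 times of this under each alternative: 9255 with DESeq2, 9087 with RLE scaling, 9061 with upper-quartile scaling, 9248 without the filter, 8737 with a filter of 1 CPM and 7333 with the 6 libraries alone. Leaving out 1 library at a time gave 8387 to 9554 calls, and 2844 to 3022 of 2-fold or more. The labels state no pairing of replicates. Deviations of same-numbered KO and HET libraries correlated at -0.0162, -0.0067 and 0.0106, so no shared effect was seen. With so few libraries and HET replicate 2 outlying, these values cannot exclude a pairing. A fit with the replicate number as a block called 8999 genes. Relative to neighbouring genes, a choice made after seeing the data, 8069 of 15222 genes were called, 6654 with the same direction as before, 185 with the opposite one and 2230 of the earlier calls were lost. Of 438 named genes, 34 crossed the threshold under some alternative, in 100 cases losing a call and in 3 gaining one, and none reversed. Low counts limit the near-absent genes, whose folds are bounds or wide intervals.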
